A study of Homo sapiens with 24 samples.

Results

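LIN28A, LIN28B, HMGA1, HMGA2, IGF2BP1, IGF2BP2, IGF2BP3, IGF2 and H19 are growth genes of the embryo that many tumours express again. They were taken by symbol, 9 of the 60658 genes counted, and each symbol matched 1 row. The measurements come from poly(A) RNA sequencing of human cells labelled SH-SY5Y, which is a neuroblastoma line, harvested 48 h after transfection. The circular RNA ciRS-7, which carries many binding sites of the microRNA miR-7, was the target in every knockdown (KD) group. Each KD group had a non-targeting control (NTC) of the same kind, with 3 libraries per group, 8 groups and 24 libraries. In the agoshRNA setup, cells received a vector for a short hairpin RNA. The gRNA and pre-gRNA setups combined a plasmid for the RNA-cutting enzyme CasRx, fused to GFP, with a plasmid for the guide, as the mature guide or as its precursor. The syn-gRNA setup used a synthetic guide, whose delivery is not given in the sources used here. Nothing in the labels says whether the 3 libraries of a group came from separate cultures, so p-values measure only the spread between these libraries.

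LIN28A and LIN28B are RNA-binding proteins that block the maturation of the let-7 family of microRNAs. Mature let-7 in turn represses messages that carry its seed match in the 3′ UTR, among them LIN28B and HMGA2, so that the pair forms a double-negative switch between embryonic growth and differentiation. HMGA1 and HMGA2 are chromatin proteins that bend AT-rich DNA, IGF2BP1 to IGF2BP3 bind and stabilise messages, IGF2 is a growth factor, and H19 is the imprinted non-coding RNA beside it. LIN28B is known as an oncogene of neuroblastoma. Mature microRNAs are not captured by poly(A) selection, so the level of let-7 itself was not measured.

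The sequences behind this circuit show which members carry a let-7 seed match and which carry one for miR-7, the microRNA tied to the targeted circle. In the microRNAs, from RefSeq on GRCh38.p14, capitals mark the seed, bases 2 to 8. The let-7 members and miR-98 share 1 seed, and miR-7 has another.
hsa-let-7a-5p: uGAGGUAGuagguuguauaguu
hsa-let-7g-5p: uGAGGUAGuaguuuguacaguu
hsa-miR-98-5p: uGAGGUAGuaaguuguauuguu
hsa-miR-7-5p: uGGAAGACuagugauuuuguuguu

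In the 3′ UTRs of the principal GENCODE release 29 transcripts, on the strand of the message, 7 of the 8 protein-coding members held the let-7 match CTACCTC, against 8.679% of 19195 annotated 3′ UTRs. IGF2 did not hold it. The members had been listed as genes under let-7 control, so this share is a description and not independent evidence. LIN28B, HMGA2 and IGF2BP1 held 4 matches each, and LIN28A, HMGA1, IGF2BP2 and IGF2BP3 held 1 each. Among 3′ UTRs within 20% of the same length, the share with a match was 23.3% for LIN28B, 14.2% for HMGA2 and 29.8% for IGF2BP1. Of the 16 matches, 9 were followed by an A, the base that makes an 8-base site. The lines below give 1 match per gene in its surroundings of 22 bases, with the seed match in capitals.
LIN28A: cacagcctattgaaCTACCTCa
LIN28B: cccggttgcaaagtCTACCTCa
HMGA1: cctctgttcacaaaCTACCTCt
HMGA2: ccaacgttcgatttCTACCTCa
IGF2BP1: gtgtgcgaagtaaaCTACCTCa
IGF2BP2: acacacagaagaagCTACCTCa
IGF2BP3: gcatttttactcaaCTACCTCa
The match of HMGA2 starts 21 bases into its 3′ UTR and that of LIN28B 44 bases in. The miR-7 match GTCTTCC was held by 1 of the 8 members, IGF2BP2, against 10.487% of all 3′ UTRs.
IGF2BP2, miR-7 match: agctgttctgaattGTCTTCCg

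Total counts per library ranged from 10994974 to 16233777. Most markers of the labelled cell type were low, so the cells are named here by their label only. Of 15 noradrenergic neuroblastoma markers 3 had a mean above 10 CPM (counts scaled to a common library total), GATA2 (35.7 CPM), TBX2 (22.0 CPM) and CHRNA3 (13.0 CPM). Another 7 never exceeded 5 counts in a library, among them PHOX2A, DBH, TH, STMN2 and ELAVL4, with means of 0.0932, 0.019, 0.0026, 0.042 and 0.029 CPM. Of 13 markers of kidney lineage 10 had a mean above 10 CPM, with HOXA9 (98.2 CPM) and HOXD10 (94.3 CPM) highest. PAX8 (0.0138 CPM), LHX1 (1.57 CPM) and WT1 (2.03 CPM) were low. Of 12 mesenchymal markers 8 had a mean above 10 CPM, with VIM (872 CPM) highest. Of 9 markers of pluripotent cells, the cells best known for LIN28A, 1 was above 10 CPM (DNMT3B), and ZFP42 had 0 counts throughout. Libraries also differed in a trend with base composition, the slope of a gene's log2 level on its GC content, which ran from -0.59 to 0.79 per 10 points of GC.

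The first question was how much of each gene these cells made. HMGA1 was the most abundant member by far, and LIN28B rather than LIN28A was the LIN28 paralogue present. HMGA1 (hg19, chr6:34204650-34214008, plus strand) lay between 430 and 1217 CPM with a median of 705. IGF2BP1 (chr17:47074774-47133012, plus strand) followed with 81.1 to 424 CPM and a median of 217. LIN28B (chr6:105384491-105531207, plus strand) reached 10.1 to 113 CPM with a median of 46.7. The other members of substantial level were HMGA2 with a median of 85.6 CPM, IGF2BP2 with 71.2 and IGF2BP3 with 35.9. IGF2, at 1.51 to 7.06 CPM, and H19, at 0.364 to 2.35 CPM, were close to silent. These are the neighbours of the imprinted region on chromosome 11.

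Levels of different genes were compared per kb of the principal transcript. HMGA1 had a median of 327 CPM per kb, above IGF2BP1 in 24 of 24 libraries and without overlap of their ranges. IGF2BP1 (26.2), IGF2BP2 (19.3) and HMGA2 (19.1) formed a second tier of CPM per kb in which neighbours could not be ordered, since IGF2BP1 exceeded IGF2BP2 in 15 libraries and IGF2BP2 exceeded HMGA2 in 13. LIN28B (8.48) and IGF2BP3 (8.44) formed the tier below, with LIN28B higher in 10 libraries. IGF2 (0.543) and H19 (0.528) followed, with IGF2 higher in 12 libraries, and LIN28A (0.0192) was last. The order depends on the length used. With the deposited gene length, which for HMGA2 is 15403 bases against 4473 for its principal transcript, HMGA2 fell to 5.56 CPM per kb, below LIN28B at 7.78.

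**Figure D1:**
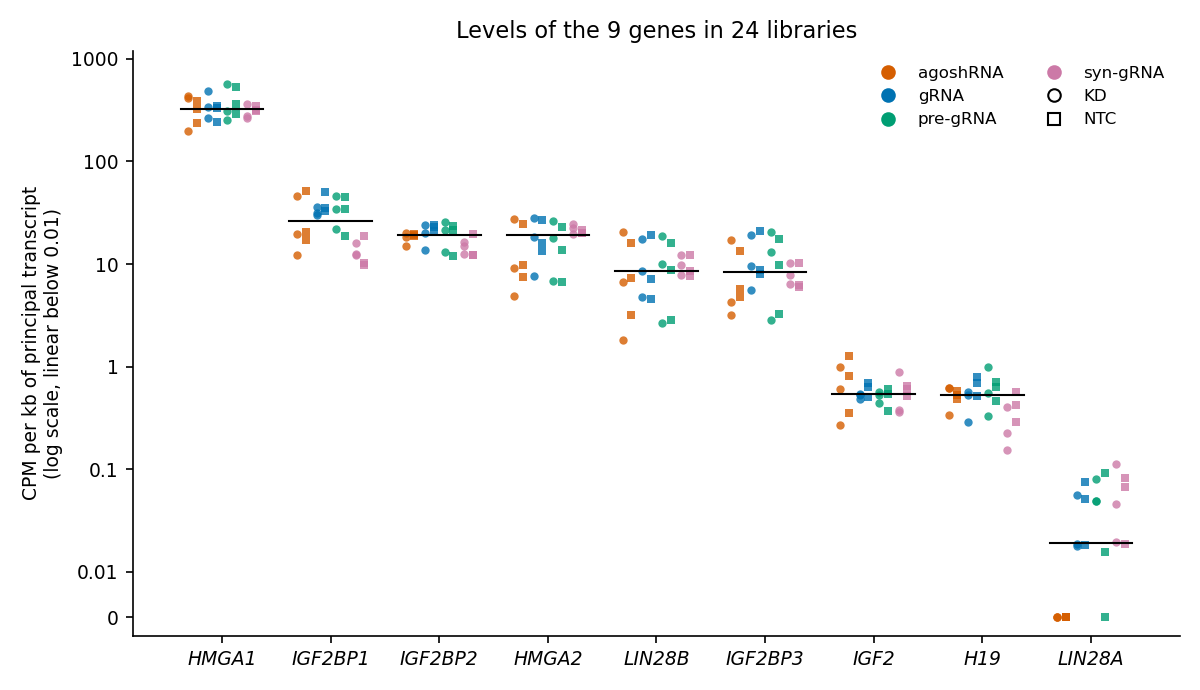
CPM per kb of principal transcript (log axis, linear below 0.01) of the 9 genes, 1 point per library, coloured by setup, with circles for KD, squares for NTC and a bar at the median of 24 libraries. HMGA1 stands above the others at a median of 327, LIN28B and IGF2BP3 sit side by side near 8.5, and LIN28A is at 0 in every agoshRNA library.

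LIN28A (chr1:26737269-26756213, plus strand) was barely detected. It had 50 counts in all 24 libraries together and at most 6 in any of them. The 6 agoshRNA libraries held 0 counts of 80007615, which allows a level of up to 0.0375 CPM by a floor of 3 counts over the setup. The gRNA libraries held 13 counts, the pre-gRNA libraries 18 and the syn-gRNA libraries 19, and 1 of these 18 libraries was at 0. Over those 3 setups the level was 0.195 CPM, 5.2-fold the floor of the agoshRNA setup. This ratio allows for counting error in the agoshRNA setup only. It covers neither the counting error of the 50 counts nor the spread between libraries, so it is not a lower bound. LIN28A did not pass the filter on low counts (at least 10 counts in at least 3 libraries) in any comparison. Without that filter its difference between agoshRNA and the other setups had an unadjusted p between 0.00943 and 0.0573 in DESeq2 and an adjusted p of 1 or none at all.

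Reads at several members cannot be given to 1 gene without doubt. The 3′ end of IGF2BP3 overlaps that of MALSU1, a mitochondrial ribosome assembly factor on the other strand with 428 to 1236 counts per library, and the libraries do not record strand. RP11-889I17.2, a readthrough gene on the same strand that shares exons with IGF2, had 1039 counts in all against 1088 for IGF2, so the level of IGF2 is uncertain. AC105030.1, which lies within IGF2BP1 on the same strand, had 3115 counts against 78047 for IGF2BP1. The processed pseudogenes of HMGA1, which lie elsewhere in the genome, held at most 7 counts in any library.

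The second question was whether these genes differed after ciRS-7 was targeted. The level of ciRS-7 itself was not examined here, so the degree of its depletion is not given. No member passed the test in any setup. Counts of 0 called members stand beside 0% of genes called in each of the 4 setups, out of 17806 to 18717 genes tested per setup by the Wald test of DESeq2 (adjusted p under 0.05). Without adjustment, 0, 17, 2 and 55 genes had p under 0.05 in the setups agoshRNA, gRNA, pre-gRNA and syn-gRNA, and no member was among them. edgeR called 0 genes as well, with 3, 34, 11 and 176 at unadjusted p under 0.05, again no member. In both tools these counts lay far below a share of 0.05 of the genes tested, the share expected without any effect. These tests, which do not use the letters, were thus conservative here. The absence of members among the genes with a low p therefore says little. With the column letter as a block, 1 gene was called in the syn-gRNA setup, which was not a member.

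LIN28B, the let-7 antagonist, shows how large the spread within a group was. In the agoshRNA setup its KD libraries had 10.1, 113 and 36.5 CPM, and its NTC libraries 17.6, 88.5 and 40.6, in the order of the column letters A, B and C. In the gRNA setup KD libraries had 26.4, 46.6 and 97.2 CPM and NTC libraries 25.1, 39.0 and 106. In both setups KD and NTC overlapped, and libraries of the same letter lay closer together than libraries of the same arm. The pre-gRNA libraries had 55.5, 14.7 and 102 CPM after KD and 47.7, 15.5 and 88.1 CPM in NTC. The syn-gRNA libraries were closer together, with 67.7, 43.1 and 53.3 CPM after KD and 67.4, 46.8 and 41.8 CPM in NTC. Its log2 fold change was 0.16 (SE 0.92) with agoshRNA, 0.04 (SE 0.59) with gRNA, 0.17 (SE 0.67) with pre-gRNA and 0.07 (SE 0.19) with syn-gRNA, none larger than its error, and the agoshRNA value was 1.02 without NTC B and -1.14 without KD B. The 95% interval of the fold change ran from 0.318 to 3.92 in the agoshRNA setup and from 0.814 to 1.36 in the syn-gRNA setup. Both intervals come from fits that do not use the letters, so their width includes the spread between letters. In agoshRNA pairs of the same letter, LIN28B differed between KD and NTC by -0.77 (A), 0.35 (B) and -0.15 (C) on the log2 scale. A 3-fold rise lay inside the first interval and outside the second, but none of these agoshRNA pairs showed one.

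HMGA2, a let-7 target with 4 seed matches, followed the same pattern. Its agoshRNA libraries had 21.9, 124 and 40.5 CPM after KD and 33.8, 111 and 43.4 CPM in NTC. In the syn-gRNA setup they had 100.4, 88.5 and 109 CPM after KD and 97.0, 90.7 and 90.6 CPM in NTC. The groups overlapped in both setups, and the log2 fold changes were 0.02 (SE 0.80) and 0.09 (SE 0.13). In the gRNA and pre-gRNA setups they were -0.005 (SE 0.49) and 0.20 (SE 0.54).

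HMGA1, its relative, had means of 756 ± 283 CPM (SD, n = 3) after agoshRNA KD and 682 ± 167 in NTC, and 782 ± 238 after gRNA KD and 665 ± 120 in NTC. Its means were 810 ± 358 and 856 ± 274 CPM in the pre-gRNA setup, and 649 ± 116 and 704 ± 37.0 CPM in the syn-gRNA setup. Each difference was smaller than the larger SD of its 2 groups. The largest log2 fold change of HMGA1 was 0.36 (SE 0.38) in the gRNA setup.

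IGF2BP1, IGF2BP2 and IGF2BP3 did not pass the test either. IGF2BP1 had a log2 fold change of -0.16 (SE 0.61) with agoshRNA, -0.18 (SE 0.31) with gRNA, 0.04 (SE 0.39) with pre-gRNA and 0.07 (SE 0.20) with syn-gRNA. In the same order IGF2BP2, the member with a miR-7 match, had -0.07 (SE 0.32), -0.14 (SE 0.32), 0.05 (SE 0.36) and 0.0003 (SE 0.18). IGF2BP3 lay between -0.09 and 0.23. The imprinted neighbours had few counts, 21 to 87 per library for IGF2 and 4 to 36 for H19. H19 gave the value farthest from 0 of all members, -0.69 (SE 0.61, unadjusted p 0.259 in DESeq2) in the syn-gRNA setup, where its KD libraries held 7, 12 and 4 counts and its NTC libraries 20, 9 and 15.

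Across the 32 member values (8 members in 4 setups) the log2 fold change ran from -0.69 to 0.36 and every adjusted p was above 0.999 in DESeq2. The members' median log2 fold change was 0.01, -0.11, 0.06 and 0.04 in the setups agoshRNA, gRNA, pre-gRNA and syn-gRNA, beside a median of between 0.0003 and 0.06 over all genes tested. KD and NTC overlapped in 36 of 36 comparisons of a member in a setup, LIN28A included. LIN28A had 0 counts in all 6 agoshRNA libraries, so its overlap there was fixed. The share of all genes with such an overlap was not computed, so the count says nothing particular about the members. Exact two-sided permutation p-values lay between 0.2 and 1, where 3 against 3 libraries cannot give less than 0.1. The overlaps and these p-values do not use the letters. In pairs of the same letter, 8 of the 32 member values had 1 sign in all 3 pairs, 4 lower and 4 higher after KD. Per setup that was 2, 3, 2 and 1 of 8 members, beside 21.8%, 22.8%, 36.4% and 24.3% of all genes tested. In the gRNA setup 15.8% of all genes were lower and 7.04% higher in the 3 pairs. IGF2 was lower after KD in the 3 agoshRNA pairs, with differences of -0.37, -0.30 and -0.34 in log2(CPM + 0.5), and in the 3 gRNA pairs, with -0.29, -0.05 and -0.22. IGF2BP1 was lower in the 3 agoshRNA pairs (-0.15, -0.07 and -0.46) and higher in the 3 pre-gRNA pairs (0.02, 0.23 and 0.01). The others were H19 (lower) and HMGA1 (higher) in gRNA, HMGA2 (higher) in pre-gRNA and IGF2BP3 (higher) in syn-gRNA. None of these passed with the letter as a block, where the agoshRNA values were -0.36 (SE 0.35) for IGF2 and -0.20 (SE 0.16) for IGF2BP1 in DESeq2. The authors' deposited tables gave the same picture, with an adjusted p of 1 for each member in each setup. The effect of the knockdown was also compared between setups: 0 of the 8 members tested and 0% of genes were called in each of the 6 pairs. The unadjusted p of the members was at least 0.297 in DESeq2 and 0.258 in edgeR. Of all genes, 29 to 45 per pair had an unadjusted p under 0.05 in DESeq2, again far below a share of 0.05 of the genes tested.

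**Figure D2:**
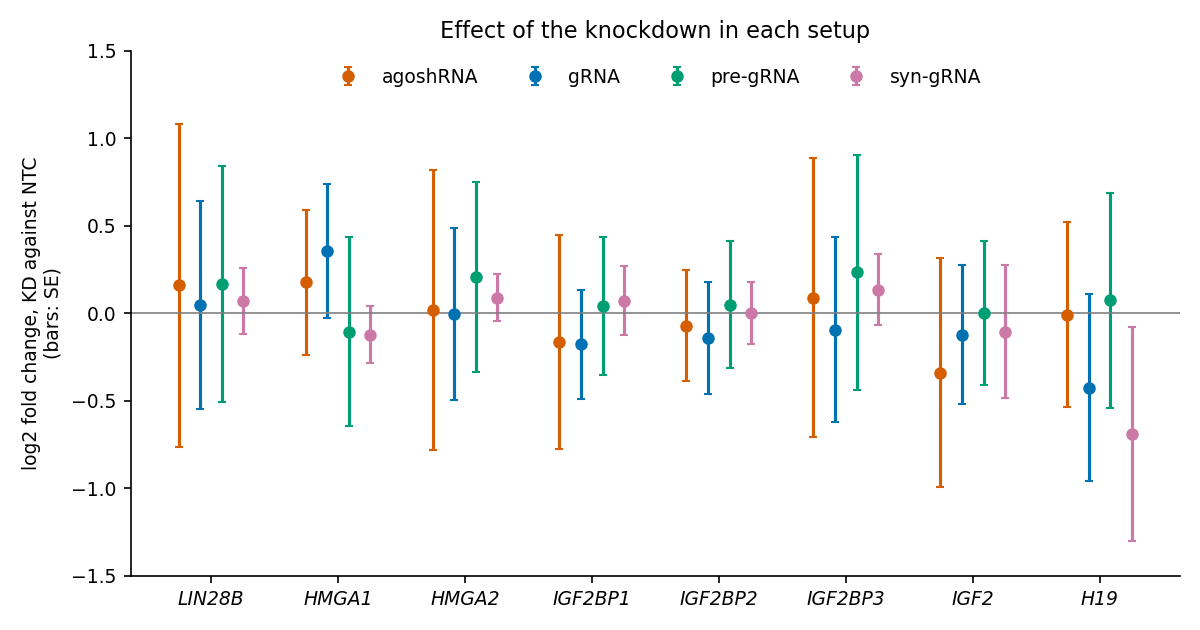
Log2 fold change of KD against NTC for the 8 tested members in each setup (6 libraries each), with bars for the SE of DESeq2. All bars but that of H19 in the syn-gRNA setup reach 0, the values run from -0.69 for H19 to 0.36 for HMGA1, and the bars are shortest in the syn-gRNA setup for most members.

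Libraries with the same letter moved together within a setup, and this exceeded any difference between KD and NTC for LIN28B and IGF2BP3. For LIN28B the largest difference between KD and NTC of the same letter was 0.77 on the log2 scale, while the letters of a group differed by up to 3.43. In 4 of 4 setups the largest same-letter difference of LIN28B was smaller than the spread between letters in both arms, and the same held for IGF2BP3, with 0.65 against up to 2.81. HMGA2 and HMGA1 showed it in 3 of 4 setups and IGF2BP2 in 2 of 4. IGF2BP1 showed it in 3 of 4, the exception being the gRNA setup, where KD A had 261 CPM and NTC A 421.

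These swings went with the GC trend of the libraries. LIN28B (transcript GC content 38.1%), IGF2BP3 (40.5%) and HMGA2 (45.3%) were low where GC-rich genes read high, and HMGA1 (61.3%) was high there. In the 5 libraries with a slope above 0.5, LIN28B had 10.1 to 26.4 CPM, HMGA2 21.9 to 34.1 CPM and HMGA1 842 to 1217 CPM. In the 8 libraries with a slope under -0.25, LIN28B had 53.3 to 113 CPM, HMGA2 100.4 to 126 CPM and HMGA1 430 to 630 CPM. These classes did not overlap for any of the 3 genes, nor for IGF2BP3 (12.1 to 23.8 against 33.6 to 90.2 CPM). The other members overlapped, as IGF2BP1 did with 156 to 424 against 103 to 297 CPM. The slopes were computed from the expression in these same libraries, so the separation is a description and not independent evidence. The share of all genes that separate in this way was not computed. With an offset for GC content in each library, the ratio of the highest to the lowest library fell from 13.2 to 2.42 for LIN28B, from 6.62 to 2.49 for IGF2BP3, from 6.62 to 3.25 for HMGA2 and from 3.04 to 1.58 for HMGA1, on the scale of DESeq2 size factors. For IGF2BP1 it went from 4.61 to 4.22, for IGF2BP2 from 1.78 to 1.67 and for H19 from 6.79 to 4.12. For IGF2 it rose from 4.41 to 4.83. The part of the GC trend in the levels of single genes was not tested beyond these offsets.

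By Pearson correlation of log2(CPM + 0.5) over the 24 libraries, computed for 13835 genes whose mean count was 50 or more, the gene most like LIN28B was GOLGB1, a Golgi matrix protein (r = 0.9949). The gene most like HMGA1 was MDH2, the mitochondrial malate dehydrogenase (r = 0.9908), and that most like HMGA2 was ASPH (r = 0.9933). IGF2BP1 was most like AC105030.1, which lies within it (r = 0.9776), IGF2BP2 like UBQLN2 (r = 0.9642) and IGF2BP3 like ZFP62 (r = 0.979). Among the members, LIN28B correlated with HMGA2 at r = 0.927 and with HMGA1 at r = -0.888. These values are descriptions without a p, since all genes share the libraries, their depth and their GC trend.

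The third question was whether the level of the members differed between setups. IGF2BP1, which binds and stabilises growth-related messages, was lower in these libraries with the synthetic guide than with either plasmid-encoded guide. Its calls, given below, were not stable. In the syn-gRNA setup it had 131, 101 and 103 CPM after KD and 154, 85.6 and 81.1 CPM in NTC. In the gRNA setup it had 261, 249.9 and 297 CPM after KD and 421, 272 and 291 CPM in NTC, and in the pre-gRNA setup 381, 183 and 285 CPM after KD and 375, 156 and 283 CPM in NTC. Each of the 12 libraries of the gRNA and pre-gRNA setups lay above each of the 6 syn-gRNA libraries. The margin was small, with 156 CPM in pre-gRNA NTC B and 154 CPM in syn-gRNA NTC A. Libraries of the same letter moved together, so the 12 are not independent values. The share of all genes that separate in this way was not computed. The agoshRNA libraries, at 382, 161 and 102 CPM after KD and 424, 169 and 142 CPM in NTC, overlapped with the syn-gRNA libraries, and 4 of 6 lay above all of those.

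Between NTC groups, IGF2BP1 was higher in gRNA than in syn-gRNA by 1.48 on the log2 scale (SE 0.40, adjusted p 0.0242 in DESeq2), 1 member of 8 called beside 1.32% of all genes. It was higher in pre-gRNA than in syn-gRNA by 1.28 (SE 0.40, adjusted p 0.0427), 1 of 8 beside 3.25% of all genes. Against agoshRNA the value was 1.15 (SE 0.40, adjusted p 0.11), and 0 of 8 members were called beside 1.84% of all genes. Between KD groups the values had the same sign but did not pass: 1.22 in gRNA (adjusted p 0.0857, with 1.58% of genes called), 1.24 in pre-gRNA (0.0616, 2.52%) and 0.90 in agoshRNA (0.222, 3.14%), each with 0 of 8 members called in DESeq2.

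The calls on IGF2BP1 were not stable. edgeR called neither, with an adjusted p of 0.137 for gRNA and 0.123 for pre-gRNA, beside 0 and 149 genes called of 20172. Over all alternatives the adjusted p of IGF2BP1 ran from 9.65e-05 to 0.323 for gRNA and from 0.00813 to 0.32 for pre-gRNA. The gRNA call was lost without gRNA NTC A, gRNA NTC C, syn-gRNA NTC B or syn-gRNA NTC C, with log2 values of 1.30, 1.56, 1.37 and 1.33, and the pre-gRNA call was kept, of the 6 fits that leave out 1 library, only without syn-gRNA NTC A (1.59). The agoshRNA value passed without syn-gRNA NTC A (1.46, adjusted p 0.0411 in DESeq2). Offsets for GC content gave calls of IGF2BP1 in 5 of the 6 comparisons with syn-gRNA, the exception being agoshRNA KD. The setups differ in the agent (hairpin or guide), in the form of the guide, in their control and in their libraries at once. Any difference in delivery or processing batch goes with the setup as well, and these cannot be told apart.

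**Figure D3:**
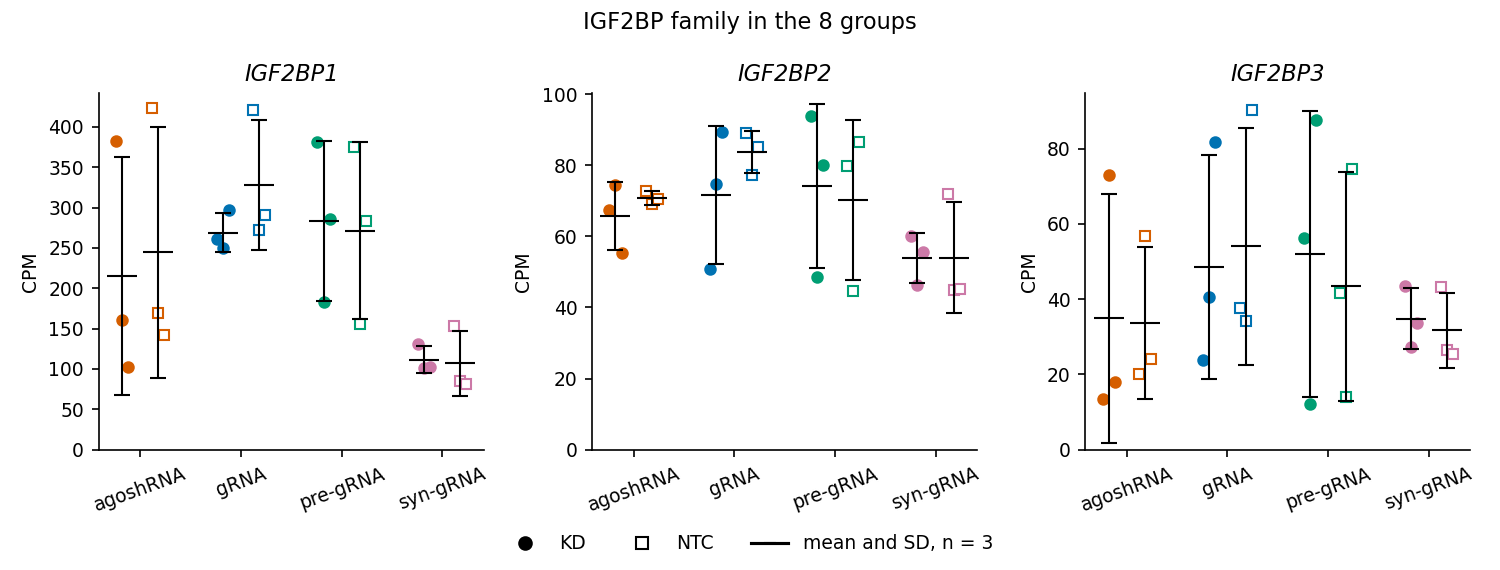
CPM of IGF2BP1, IGF2BP2 and IGF2BP3 in the 8 groups, with circles for KD libraries, squares for NTC libraries and black bars for mean and SD (n = 3). The syn-gRNA libraries of IGF2BP1 lie between 81.1 and 154 CPM, below all gRNA and pre-gRNA libraries (lowest 156 CPM), while for IGF2BP2 and IGF2BP3 the setups overlap.

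The other members of the family were not called. IGF2BP2 was 45.0 to 72.1 CPM in the 6 syn-gRNA libraries, 50.8 to 89.4 CPM in the gRNA libraries and 44.5 to 93.8 CPM in the pre-gRNA libraries. The setups overlapped, and its largest difference was 0.50 on the log2 scale (SE 0.23, adjusted p 0.348 in DESeq2) between gRNA NTC and syn-gRNA NTC. IGF2BP3 gave 0.06 to 0.63 in the 6 comparisons with syn-gRNA. HMGA2 gave -0.28 to -0.61 in these 6 comparisons, none called, and its difference between agoshRNA KD and syn-gRNA KD became -1.64 (adjusted p 0.0456) without agoshRNA KD B.

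Of the 42 values of other members against syn-gRNA, 2 had an unadjusted p under 0.05 in DESeq2 and the lowest adjusted p was 0.222, for H19 between pre-gRNA KD and syn-gRNA KD (1.24, SE 0.53). LIN28B lay between -0.15 and 0.04 in these 6 comparisons. Among agoshRNA, gRNA and pre-gRNA, 0 of 8 members were called in any of the 6 comparisons, beside 0.0496%, 0.0347% and 0% of genes between NTC groups and 0.0446%, 0.0446% and 0% between KD groups. The 48 member values there lay between -0.55 and 0.69, with an unadjusted p of at least 0.122.

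The genes around these members were read from 6 lists. None of the list genes tested was called for the knockdown in any setup in DESeq2, beside 0% of all genes, and 0 had an unadjusted p under 0.05. Few of all genes had such a p either, with 0, 17, 2 and 55 in the setups agoshRNA, gRNA, pre-gRNA and syn-gRNA. The filter left 16 of 16 genes of let-7 processing, 4 to 5 of 6 let-7 hosts and 27 to 28 of 28 further let-7 targets. It also left 13 of 17 IGF-axis genes, 8 to 9 of 16 imprinted and other oncofetal growth genes and 9 of 10 IGF2BP clients. Calls against syn-gRNA stand beside 1.32% to 3.25% of all genes called in the 6 comparisons. Of the 16 genes of let-7 processing and of LIN28 cofactors, DGCR8 was called as lower in syn-gRNA in 5 of 6 comparisons, by 1.09 to 1.38 on the log2 scale. It is the RNA-binding partner of DROSHA in the first cut of microRNA precursors. Among 8 host genes of let-7, 6 were in the tables and 2 had a mean above 10 CPM. WDR82, the host of let-7g, was called as lower in syn-gRNA in 4 of 6 comparisons, by 0.75 to 0.92.

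Of 28 further let-7 targets, 25 had a mean above 10 CPM, and E2F2, PLAGL2, INSR and ARID3A were called as lower in syn-gRNA in at least 1 comparison. E2F2, an activator of S-phase genes, was called in 4 of 6 comparisons with 1.35 to 1.54 on the log2 scale. PLAGL2, a zinc-finger transcription factor, was called in 3 with 1.40 to 1.64, and ARID3A in 1 with 1.17. INSR, the insulin receptor, which also belongs to the 17 genes of the IGF axis, was called in 4 with 0.95 to 1.30. In the comparison of pre-gRNA NTC with syn-gRNA NTC, 3 of these 28 targets were called beside 3.25% of all genes, with a median difference of 0.06 beside 0.04 over all genes. These 21 calls of list genes held in 4 to 11 of the 12 or 13 alternatives each. The GC slopes of the libraries also differed between setups. They ran from -0.31 to -0.10 in syn-gRNA, -0.59 to 0.79 in agoshRNA, -0.42 to 0.63 in gRNA and -0.42 to 0.66 in pre-gRNA. The part of this trend in the calls was not tested beyond the GC offsets among these alternatives.

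The other lists gave no call apart from INSR. The IGF axis was led by IRS4, an adaptor of the insulin and IGF receptors (mean 182 CPM), IGF2R (87.3), which clears IGF2 from the cell surface, and IGFBP2 (84.8), which binds it. Of 16 genes on the list of imprinted and other oncofetal growth genes, 4 had a mean above 10 CPM and 6 never exceeded 5 counts. CTCF (61.7 CPM), PLAGL1 (57.1) and the proteoglycan GPC3 (55.3) were highest on that list. Among 10 messages known to be bound by IGF2BP proteins, the most abundant were EEF2 (6938 CPM), PABPC1 (1876) and ACTB (1267). Of the 9 that passed the filter (CD44 did not), 0 were called between setups, beside at most 3.25% of all genes.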

How the data were processed

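Reads of non-stranded poly(A) libraries had been trimmed with Trim Galore, aligned to hg19 with STAR 2.7.3a and counted with featureCounts, per the submitters' processing notes. The 4 deposited tables held the same raw counts in 24 columns. The log2 fold changes and p-values in the authors' deposited tables came from DESeq2; 96 columns of normalized counts (24 per table) were not used. Column letters (A to C) match no replicate number of the labels, so libraries are named by letter. Within a setup, deviations of KD and NTC libraries with the same letter correlated across genes at r = 0.361 to 0.975 (12 pairs), against -0.945 to 0.494 for other letters (24 pairs).

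KD was tested against NTC on the 6 libraries of a setup, and setups in 1 model of 24 libraries and 8 groups, with DESeq2 1.42.0 in R 4.3.3 (at least 10 counts in at least 3 libraries, Benjamini-Hochberg over all genes, threshold 0.05). Scripts were checked on simulated counts without letter or GC structure, so that check does not show what effect these libraries could reveal. Alternatives included edgeR 4.0.16, TMM factors, other filters, GC offsets, a block by letter and leaving out each library. Gene type, GC content and 3′ UTRs came from GENCODE release 29, which gave a GC content to 93.2% of genes. Every member was named, with overlapping genes, the nearest genes by correlation, and genes called in, or highest in, each list. Members and lists were chosen with earlier results of these data known.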

Additional observations from a re-analysis of the deposited data

How the results depend on the processing

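No member passed the threshold of 0.05 for the knockdown in any alternative run, and none differed between agoshRNA, gRNA and pre-gRNA in any. Members called against syn-gRNA, IGF2BP1 in each case but 1, went from 1 to 0 with edgeR in gRNA NTC and pre-gRNA NTC and with TMM factors in DESeq2 in pre-gRNA NTC. They went from 0 to 1 with GC offsets in agoshRNA NTC, gRNA KD and pre-gRNA KD, and with only the 6 libraries compared in the last 2. Leaving out 1 library gave 0 to 1 members called in the 3 NTC comparisons and in agoshRNA KD, where the member was HMGA2. The cause of these shifts was not tested.

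The block by column letter called 1 gene for the knockdown in the syn-gRNA setup in place of 0, with or without GC offsets, and changed no other call. It turned the sign of LIN28B (-0.142), HMGA2 (-0.147) and IGF2BP3 (-0.161) in agoshRNA and of H19 (-0.066) in pre-gRNA, none of them called. With GC offsets as well, signs turned in agoshRNA for LIN28B (-0.059), HMGA1 (-0.014), HMGA2 (-0.011), IGF2BP2 (0.01) and IGF2BP3 (-0.056), in gRNA for HMGA2 (0.056) and in pre-gRNA for LIN28B (-0.017). GC offsets alone gave LIN28B -0.033, HMGA1 -0.01, IGF2BP2 0.01 and IGF2BP3 -0.037 in agoshRNA, HMGA2 0.073 in gRNA, LIN28B -0.015 in pre-gRNA, and LIN28B -0.001 and IGF2BP2 -0.015 in syn-gRNA. Signs near 0 also turned in agoshRNA for HMGA2 (-0.002 with edgeR and with TMM factors in DESeq2) and H19 (0.01 and 0.008), and without the filter for IGF2 (-0.004, pre-gRNA) and IGF2BP2 (-0.007, syn-gRNA).

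Leaving out 1 library moved the agoshRNA log2 fold change of LIN28B from -1.139 to 1.022, of HMGA2 from -1.084 to 0.837, of IGF2BP1 from -0.733 to 0.381, of IGF2BP2 from -0.25 to 0.036, of IGF2BP3 from -1.175 to 0.812, of IGF2 from -0.884 to 0.154 and of H19 from -0.165 to 0.177. In gRNA the ranges were -0.536 to 0.88 for LIN28B, -0.431 to 0.364 for HMGA2, -0.295 to 0.024 for IGF2BP2 and -0.639 to 0.512 for IGF2BP3. In pre-gRNA they were -0.566 to 0.82 for LIN28B, -0.705 to 0.391 for HMGA1, -0.264 to 0.672 for HMGA2, -0.134 to 0.264 for IGF2BP1, -0.084 to 0.202 for IGF2BP2, -0.401 to 0.853 for IGF2BP3, -0.051 to 0.079 for IGF2 and -0.608 to 0.412 for H19. In syn-gRNA they were -0.083 to 0.245 for LIN28B, -0.077 to 0.365 for IGF2BP1, -0.099 to 0.204 for IGF2BP2, -0.028 to 0.365 for IGF2BP3 and -0.705 to 0.142 for IGF2. IGF2BP3 against syn-gRNA ran from -0.571 to 0.441 (agoshRNA NTC), -0.237 to 0.72 (pre-gRNA NTC), -1.13 to 0.47 (agoshRNA KD), -0.113 to 0.687 (gRNA KD) and -0.167 to 0.871 (pre-gRNA KD).

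Counts over all genes moved far more. In NTC, agoshRNA against gRNA gave 10 genes (3 with edgeR, 23 with GC offsets, 4 to 8 without 1 library). Against pre-gRNA it gave 7 (2, 27, 3 to 12, 4 in the 6 libraries alone, 15 with letters summed) and against syn-gRNA 371 (16, 1551, 43 to 487). For gRNA against syn-gRNA the count was 266 (0, 1141, 18 to 413, 1018 in the 6 libraries alone), and for pre-gRNA 656 (149, 1758, 104 to 670, 1319). In KD, agoshRNA gave 9 against gRNA (2, 20, 4 to 9, 3 in the 6 libraries alone), 9 against pre-gRNA (2, 22, 4 to 13, 2) and 634 against syn-gRNA (192, 1808, 107 to 2183, 235). The count was 318 for gRNA against syn-gRNA (38, 1005, 37 to 477) and 508 for pre-gRNA (183, 1572, 109 to 462). For the knockdown in syn-gRNA, leaving out 1 library gave 0 to 1 genes. The cause was not tested. Depth limits LIN28A, at 0 to 6 counts, and H19, at 4 to 36.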
